A study of Mus musculus with 4 samples.

Results

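The Fos and Jun genes of activator protein 1 (AP-1) were followed in coronal brain sections of mouse offspring whose mothers ate a folic acid (FA) diet of 2 or 20 mg/kg. They are the 6 features of the tables with the symbols Fos, Fosb, Fosl2, Jun, Junb and Jund, of 19465 features in all. Each symbol had 1 row, so no member was missing. The members were chosen by their HF against MF differences in these same sections, and that contrast is therefore given as a description of values, with no test of a member. The sections came from male wild-type C57BL/6J offspring at postnatal day 21. In the MF group (labelled median folate) the dams had the 2 mg/kg diet and in the HF group they had the 20 mg/kg diet, in both for 2 weeks before mating and then through pregnancy and lactation. There were 2 sections a group, from tissue blocks that the study calls biological replicates, so a p-value for HF against MF measures the spread of 2 sections against 2. A p-value between regions or between subregions instead compares areas within the 4 sections, with the section as a block. Both diets held FA, and a group without it was not analysed here.

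AP-1 is a dimer of basic leucine zipper proteins that binds DNA. Jun proteins can pair with each other or with Fos proteins, whereas Fos proteins need a Jun partner to bind DNA. In neurons, Fos, Fosb and Junb are immediate early genes, switched on within minutes of calcium entry or growth factor signals through the factors Creb1, Srf and Elk1, while Jund is present at rest. Fosl2 codes for the Fos-related protein Fra-2, and Jun is the main substrate of the Jun N-terminal kinases (Mapk8, Mapk9 and Mapk10). By RefSeq on GRCm38.p6, Fos lies at chr12:85473890-85477274 on the plus strand and Junb at chr8:84976909-84978748 on the minus strand. Fosb is at chr7:19302696-19310118 (minus), Fosl2 at chr5:32136472-32157840 (plus), Jun at chr4:95049036-95052222 (minus) and Jund at chr8:70697739-70700616 (plus).

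The promoters of Fos and Junb are shown because these members had the largest differences in the cortex. Each sequence is the 250 bases before the RefSeq start of the gene on GRCm38.p6, read 5′ to 3′ on the strand of the gene, chr12:85473640-85473889 (plus) for Fos and chr8:84978749-84978998 (minus) for Junb. Capitals mark the letters TGACG, the core of a cAMP response element, and the TATA box letters TATAAA.
Fos: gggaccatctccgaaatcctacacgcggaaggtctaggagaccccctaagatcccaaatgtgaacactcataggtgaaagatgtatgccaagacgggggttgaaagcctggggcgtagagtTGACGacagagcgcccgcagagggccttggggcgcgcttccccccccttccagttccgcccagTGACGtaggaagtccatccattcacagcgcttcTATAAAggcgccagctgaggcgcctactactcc
Junb: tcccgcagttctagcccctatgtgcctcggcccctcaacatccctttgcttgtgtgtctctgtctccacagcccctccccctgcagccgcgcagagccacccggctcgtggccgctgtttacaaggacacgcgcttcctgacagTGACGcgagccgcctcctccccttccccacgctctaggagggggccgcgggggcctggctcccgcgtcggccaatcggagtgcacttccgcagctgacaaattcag
The letters TGACG began 129 and 66 bases before the start of Fos and 106 bases before the start of Junb, and the TATA box letters began 33 bases before the start of Fos. Both strands were searched for TGACG, for the full element TGACGTCA that contains it, for the AP-1 site TGANTCA, for TATAAA and for the CArG box bound by Srf. Over 32851 promoter windows of the same length, TGACG stood in 17.8%, TGACGTCA in 1.55%, TGANTCA in 6.75%, TATAAA in 12.4% and a CArG box in 1.47%. These windows leave out a single chromosome, which holds no member. Among the members TGACG stood in the windows of Fos, Fosb and Junb. The Fosb window was that before the start RefSeq's promoter table uses, and 73 of its bases lie inside the gene span given above. The windows of Fosl2, Jun and Jund held none of the 5 motifs. A match is a string of letters in this window, and elements farther out were not searched.

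The assay was Visium for formalin-fixed, paraffin-embedded tissue, in which probe pairs are ligated on the RNA and counted as unique molecular identifiers (UMIs) in spots on a slide. A spot is a small area that can hold several cells, and a level is given in CPM, the UMIs of a gene for each 1000000 UMIs of the area. Probes differ in efficiency, so levels were compared within a gene and not between genes. The sections held 34983708 to 90098381 UMIs, with MF replicate 1 the deepest and HF replicate 1 the shallowest, and 3197 to 3598 spots were kept. Spots were clustered without the members and without the other gene lists used here, and clusters were named from markers as cortex-like (CTX, 671 to 880 spots a section), hippocampus-like (HP), thalamus-like (TH), hypothalamus-like (HY), striatum-like (STR) and white matter-like (WM). VS is the union of medial habenula-like and choroid plexus-like spots. Within TH, HF replicate 1 had 64 spots in a cluster led by Prkcd and 380 in one led by Grid2ip, against 305 and 127 for MF replicate 1. A HY cluster led by Irs4 and Ghrh had no spot in HF replicate 2 and 66 to 127 in the other sections. Another HY cluster, led by Tmem212 and Dlk1, had 30 and 65 spots in MF and 177 and 126 in HF. The HY spots of the sections were thus not the same mix, and for this last cluster the mix differed by diet group. The part of this mix in the HF against MF values of HY was not tested.

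**Figure D1:**
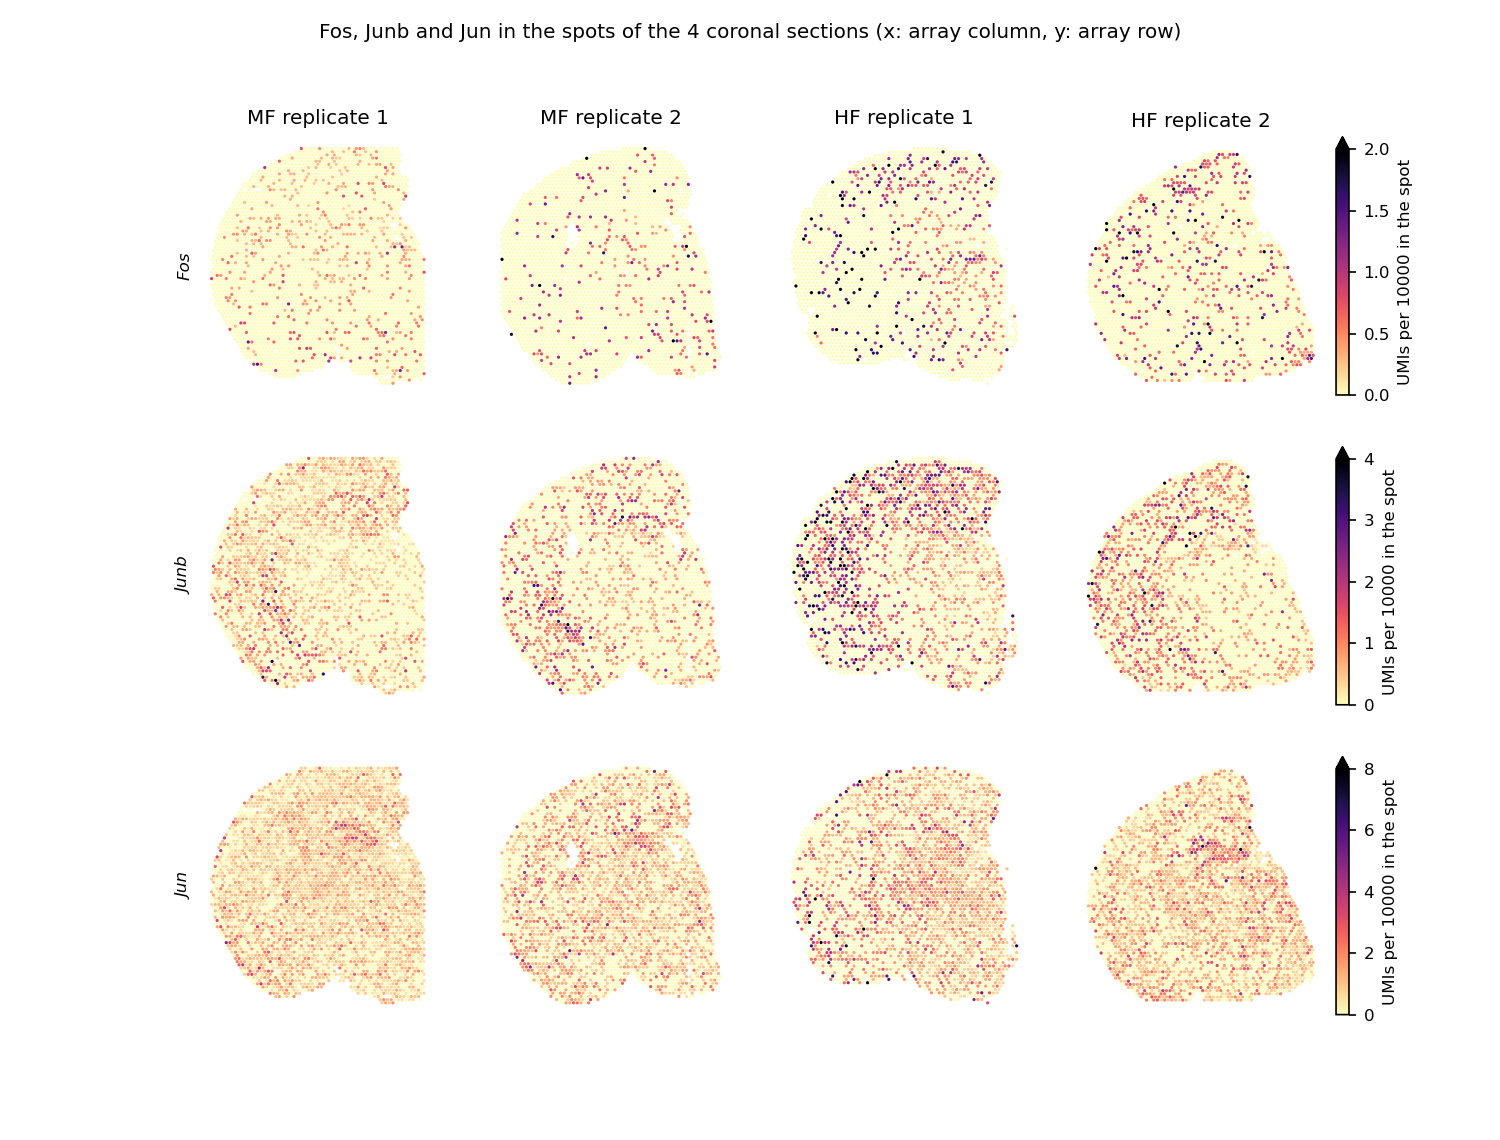
Maps of Fos (top), Junb (middle) and Jun (bottom) in each section, where every dot is a spot at its array column and row and the colour gives the gene's UMIs relative to all UMIs of that spot, on the scale of the bar. Fos dots were scattered over each section, Junb was denser over cortex and striatum than over thalamus, and a band of high Jun followed the dentate gyrus in MF replicate 1 and HF replicate 2.

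All 6 members differed in level between the 7 regions (adjusted p from 8.86e-17 for Fosl2 to 8.88e-05 for Fos, edgeR's quasi-likelihood F test with the section as a block). This was usual, since 91% of the features tested differed between regions, so the pattern of each member is the point of interest. Between the 8 named subregions of cortex and hippocampus all 6 members differed as well, where 75.7% of the features did. Pairs of regions next to each other in the order of a member's level were also compared. Of these 36 pairs 11 differed. Over all features and all pairs of regions 50.2% did, which is not a like measure, since neighbours are the closest pairs by construction. Of the 15 pairs of regions that were not neighbours, from 9 (Fos) to 15 (Fosl2 and Junb) differed for a member.

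Fos, the founding member and a common mark of recently active neurons, had only 1 step between neighbouring regions that passed the test. Over all 4 sections, with the diet groups pooled, it averaged 13.1 ± 8.66 CPM (SD, n = 4) in CTX, and TH came next before HY at 10.6 ± 3.39. STR, HP and WM followed at 9.45 ± 3.64, 8.49 ± 4.03 and 7.94 ± 3.03. No difference between these neighbours passed the test. The step that passed was that to VS, at 3.79 ± 1.16 (log2 ratio of WM over VS 0.91 ± 0.33 (SE), adjusted p = 0.0226, edgeR). CTX was above HP by 0.57 ± 0.18 on the log2 scale (adjusted p = 0.00819, edgeR). The place of CTX came from the HF sections, where its mean of 20.3 was the highest. In the MF sections CTX, at a mean of 5.94, came after HY (7.78), TH (7.73) and STR (6.51).

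Fosb, whose shorter splice product builds up in striatum after repeated stimulation, was highest in STR. Its levels there were 12.9, 14.7, 20.4 and 13.6 CPM (here and below, 4 values stand in the order MF replicate 1, MF replicate 2, HF replicate 1, HF replicate 2). STR was above CTX (10.2 ± 2.46) by 0.49 ± 0.19 on the log2 scale (adjusted p = 0.0461, edgeR), and CTX was above HP by 1.14 ± 0.18 (adjusted p = 4.07e-06). TH had the lowest level, 2.79 ± 0.364, and lay below STR by 2.37 ± 0.23 on the log2 scale. From HP down through HY, WM, VS and TH no difference between neighbours passed the test.

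Fosl2 was highest in CTX, at 38.8 ± 6.77 CPM, and lowest in TH, at 11.7 ± 2.61. CTX was above the next region, STR, by 0.39 ± 0.13 on the log2 scale (adjusted p = 0.0202, edgeR), and above TH by 1.78 ± 0.10. Within CTX the spots of 2 clusters that had too few layer markers to be named, led by Tshz2 and Htr2c and by Prph and Cbln1, held 61.7, 70.1, 87.9 and 91.5 CPM. In each section that was above every named cortical layer, and these spots were not part of the test over subregions. CA1 was lowest among the subregions, at 8.96 to 11.6, and fell below CA2-3 by 1.02 ± 0.33 on the log2 scale (adjusted p = 0.0123, edgeR).

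Jun, the founding gene of the Jun family, had another layout. HP was highest at 112 ± 3.93 CPM, followed by WM at 100.4 ± 11.3 and TH at 95.3 ± 16.7. TH was above HY by 0.58 ± 0.07 on the log2 scale (adjusted p = 2.37e-09, edgeR). STR was lowest at 53.4 ± 4.34, below HP by 1.05 ± 0.10 on the log2 scale (adjusted p = 4.58e-11, edgeR). The dentate gyrus (DG) stood apart from every other named subregion. It held 214, 197, 168 and 232 CPM, where the other subregions lay between 28.7 and 90.7. DG was above the next subregion, the olfactory-like cortex (OLF), by 1.27 ± 0.12 on the log2 scale (adjusted p = 3.86e-16, edgeR). It was above CA1, the lowest, by 2.26 ± 0.14.

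Junb, an inducible Jun that can hold back Jun, was highest in STR (75.9 ± 30.1 CPM), HP (59.5 ± 14.8) and CTX (54.0 ± 32.6), and no difference between these neighbours passed the test. These means pool the diet groups. HP was above CTX in both MF sections (46.1 and 53.4 against 32.0 and 31.8). It was also above CTX in HF replicate 2 (58.1 against 51.2), but below it in HF replicate 1 (80.5 against 100.9). CTX was above WM by 0.85 ± 0.14 on the log2 scale (adjusted p = 2.28e-06, edgeR), and TH and VS were lowest. Within the hippocampus Junb was highest in CA1, where Jun was lowest. CA1 had 91.4, 100.6, 122 and 134.6 CPM, against 46.4, 60.4, 68.6 and 42.6 in DG. CA1 was above DG by 1.30 ± 0.16 on the log2 scale (adjusted p = 6.88e-11, edgeR) and above the next subregion, layer 2-3, by 1.05 ± 0.15 (adjusted p = 1.52e-08), although in HF replicate 1 the level of layer 2-3, 135.6, was above that of CA1.

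Jund, the Jun gene expressed at rest, varied least between regions. Its regional means ran from 453 ± 27.4 CPM in HP to 598 ± 30.3 in HY. Of its neighbouring regions only STR and VS differed, by 0.14 ± 0.05 on the log2 scale (adjusted p = 0.0189, edgeR). DG and CA2-3 were its lowest subregions, and DG was below layer 4 by 0.29 ± 0.05 (adjusted p = 3.61e-07). Over all pairs of subregions 33.4% of all features' contrasts passed the same test. Among neighbours, again the closest pairs by construction, Jund and Jun passed in 2 of 7 pairs, Fosl2 and Junb in 1 and Fos and Fosb in none. Of the 21 pairs of subregions that were not neighbours, from 6 (Fos) to 17 (Jun) passed for a member.

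**Figure D2:**
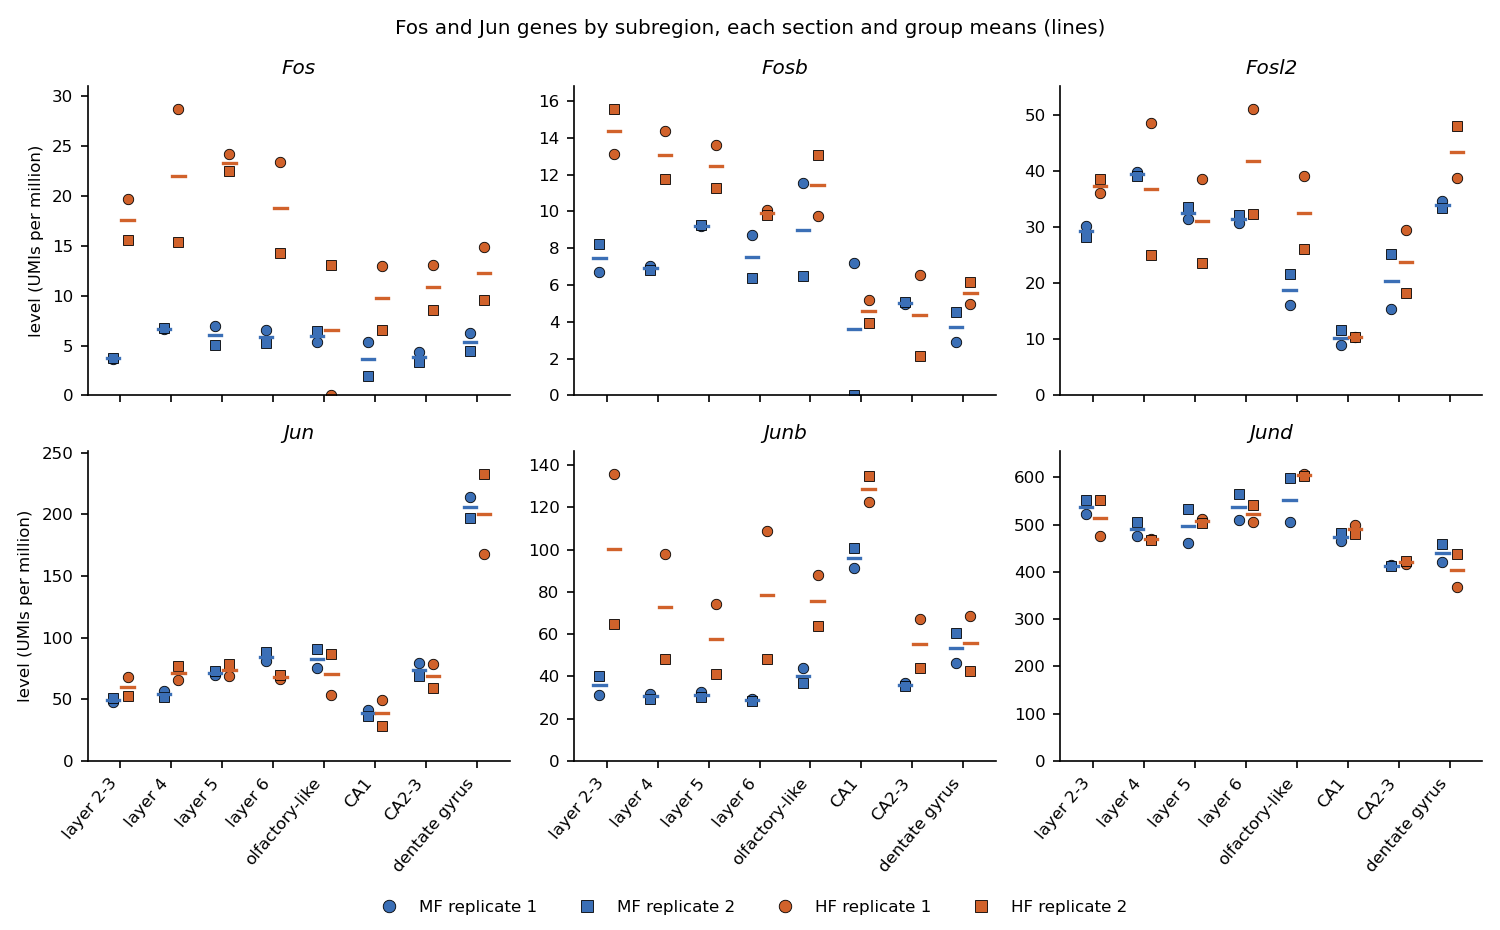
Level of each member (y axis, CPM) in 8 named subregions (x axis), with a point for each section, blue for MF and orange for HF, and a line at each group mean. Jun peaked in the dentate gyrus in all 4 sections, and Junb in CA1 in all but HF replicate 1, where layer 2-3 was higher.

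Clustering in space was also scored per section by Space Ranger as Moran's I, which is near 0 for a scattered gene and rises as neighbouring spots become alike. Junb had 0.0784, 0.0706, 0.0974 and 0.0664. Fos had 0.0124, 0.00668, 0.0156 and 0.0246, and between 30.6% and 60.8% of the features scored above it. Fosb was as scattered as Fos, at 0.00784 to 0.0254, while Fosl2, Jun and Jund ranged from 0.0443 to 0.105. Fos and Fosb also had the fewest UMIs of the members, 210 to 567 a section, and the part of this sparse sampling in their low scores was not tested.

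The features most alike to each member were found over 19 areas in 4 sections (76 points), as Pearson's r of log2 levels after each section's mean was removed. The points share sections and depth, so r is a description. Junb was followed most closely, by Baiap2 (r = 0.91), Shisa7 (0.90) and Plk2 (0.89). Jun was nearest to Tubb2b (0.75), Abcb10 (0.75) and Trim67 (0.74), Fosl2 to Tiam2 (0.78), Tbr1 (0.72) and D430041D05Rik (0.72), and Fosb to Arpp19 (0.79), Arpp21 (0.75) and Dock3 (0.73). Jund was close to Gng4 (0.72) and Pdgfa (0.70), and Fos was nearest to Rita1 (0.72), Dolpp1 (0.68) and Cdkn2aipnl (0.65). Among the members the closest pairs were Fosb with Fosl2 (0.53) and Fosb with Junb (0.45), and Jun with Junb was the most opposed (-0.23).

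The HF against MF values follow, section by section. Fos was higher in HF. Over the whole section it had 6.29 and 6.69 CPM in MF and 15.0 and 13.1 in HF. The groups did not overlap, and HF was 2.15-fold higher (log2 fold change 1.11 ± 0.12, SE of the edgeR fit). In CTX the values were 6.40 and 5.48 in MF and 23.3 and 17.3 in HF, which rest on 153, 45, 160 and 185 UMIs. That was 3.31-fold, log2 1.73 ± 0.18. In bulk sums of spots, more cells with the transcript and more transcript per cell cannot be told apart.

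The same order of Fos held in each cortical layer. Layer 2-3 had 3.70 and 3.73 CPM in MF and 19.7 and 15.6 in HF, on 11, 5, 18 and 29 UMIs. Its log2 fold change was the largest of these layers, 2.19 ± 0.38, beside 1.82 ± 0.30 in layer 5 and 1.67 ± 0.31 in layer 4. Layer 4 had 6.62 and 6.81 in MF and 28.8 and 15.4 in HF. Layer 5 had 7.01 and 5.04 against 24.2 and 22.5, and layer 6 had 6.56 and 5.25 against 23.5 and 14.3. In OLF no order could be read, since HF replicate 1 had 0 Fos UMIs there and the other sections 3 to 8.

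Outside the cortex the HF values of Fos were again above both MF values in HP, TH, HY, STR and WM. HP had 5.83 and 4.60 CPM in MF and 13.4 and 10.2 in HF. TH had 7.33 and 8.13 against 15.4 and 13.2, and HY had 6.96 and 8.60 against 12.7 and 14.2. The log2 fold changes in these 5 regions lay between 0.80 ± 0.20 in HY and 1.10 ± 0.25 in HP, and the intervals of 1 SE around them overlap. VS was the exception, at 4.93 and 2.93 in MF and 4.64 and 2.66 in HF, where 3 to 17 UMIs a section were too few to pass the filter.

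Junb was higher in both HF sections than in both MF sections in CTX, HP, WM and VS, and most so in HF replicate 1. In CTX it had 32.0 and 31.8 CPM in MF, 100.9 in HF replicate 1 and 51.2 in HF replicate 2. The groups did not overlap, and HF replicate 1 lay farther from HF replicate 2 than HF replicate 2 did from the MF sections (log2 fold change 1.24 ± 0.21 with all sections and 0.70 without HF replicate 1). In layer 2-3 the values were 31.3 and 40.3 in MF and 135.6 and 64.9 in HF, and in layer 6 they were 29.5 and 28.5 against 108.9 and 48.3. HP had 46.1 and 53.4 in MF and 80.5 and 58.1 in HF. WM had 22.9 and 20.7 in MF and 48.3 and 23.8 in HF (0.57 ± 0.26), and VS had 12.5 and 13.2 against 30.7 and 13.3 (0.89 ± 0.35), where the second HF section lay next to the MF sections. In STR, TH and HY the groups overlapped, since HF replicate 2 lay at 59.1, 13.2 and 23.6 between or below the MF sections. CA1, where Junb was highest, differed by 0.46 ± 0.19 on the log2 scale, and DG by 0.06 ± 0.21.

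**Figure D3:**
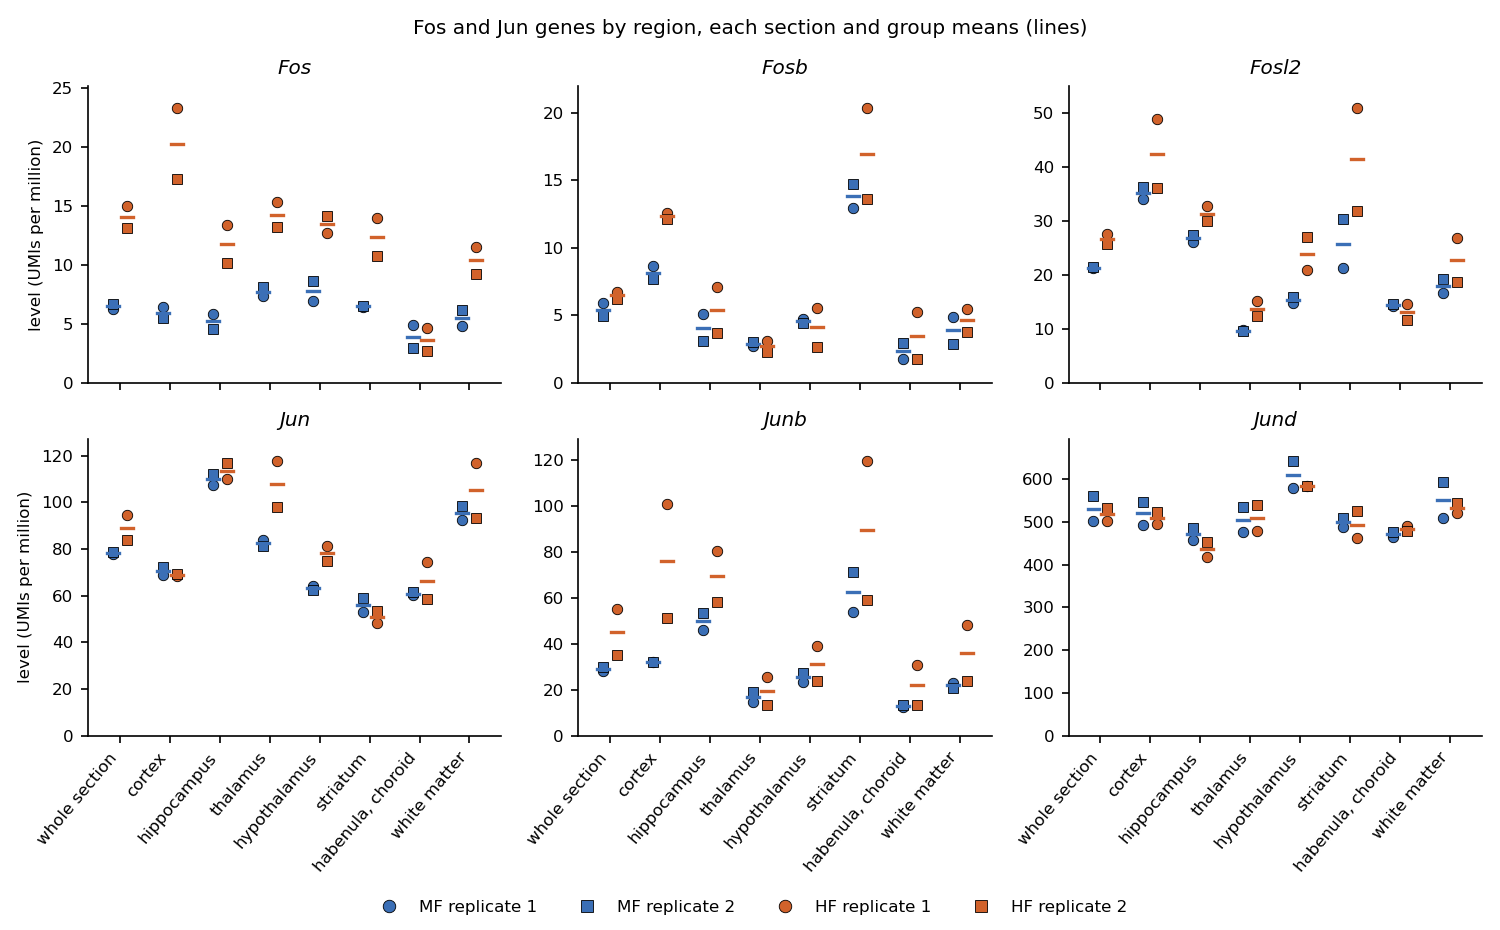
Level of each member (y axis, CPM) in the whole section and 7 regions (x axis), with a point for each section, blue for MF and orange for HF, and a line at each group mean. Fos points of HF lay above those of MF in all regions but the habenula and choroid spots, and the Junb point of HF replicate 1 lay above those of the other 3 sections in every region.

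Fosb differed less, and in the cortex. It had 8.62 and 7.68 CPM in MF and 12.5 and 12.1 in HF there (log2 fold change 0.58 ± 0.17), and the groups did not overlap. Layer 2-3 had the widest gap, with 6.72 and 8.21 in MF and 13.1 and 15.6 in HF. In HP, TH, HY, STR and WM its groups overlapped, with log2 fold changes from -0.18 ± 0.36 in HY to 0.25 ± 0.36 in HP. Fosb thus had its largest value in the cortex and not in STR, where its level was highest (log2 fold change 0.21 ± 0.32).

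Fosl2 and Jun had larger HF over MF values in TH and HY than in CTX, and Fosl2 also in STR. As given above, the TH and HY spots of the sections were not the same mix of clusters. Fosl2 had 14.8 and 15.9 CPM in MF and 20.8 and 27.0 in HF in HY (log2 fold change 0.63 ± 0.17), and 9.68 and 9.53 against 15.0 and 12.3 in TH (0.51 ± 0.17). In STR it had 21.2 and 30.3 against 50.9 and 31.9 (0.65 ± 0.24), so that 1 section of each group lay close together. In CTX the Fosl2 values of the groups overlapped, at 34.0 and 36.3 in MF and 48.9 and 36.0 in HF (0.27 ± 0.13), and its log2 fold change was 0.24 ± 0.15 in HP and -0.09 ± 0.32 in VS. Jun had 83.8 and 81.5 in MF and 117.9 and 98.1 in HF in TH (0.38 ± 0.11), and 64.1 and 62.2 against 81.5 and 74.7 in HY (0.29 ± 0.10). In CTX as a whole Jun was flat, at 68.8, 72.4, 68.3 and 69.3 (-0.02 ± 0.09), and in STR its groups overlapped (-0.09 ± 0.18). Within it layer 4 had 56.7 and 52.2 in MF and 65.7 and 77.4 in HF, whereas layer 6 had 81.3 and 88.2 in MF and 66.6 and 69.6 in HF. In DG, where Jun was highest, the groups overlapped.

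Jund did not follow the other members. It had 501 and 559.6 CPM in MF and 503 and 533 in HF over the whole section, and its log2 fold change lay between -0.10 ± 0.09 in HP and 0.07 ± 0.12 in VS over the 7 regions.

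**Figure D4:**
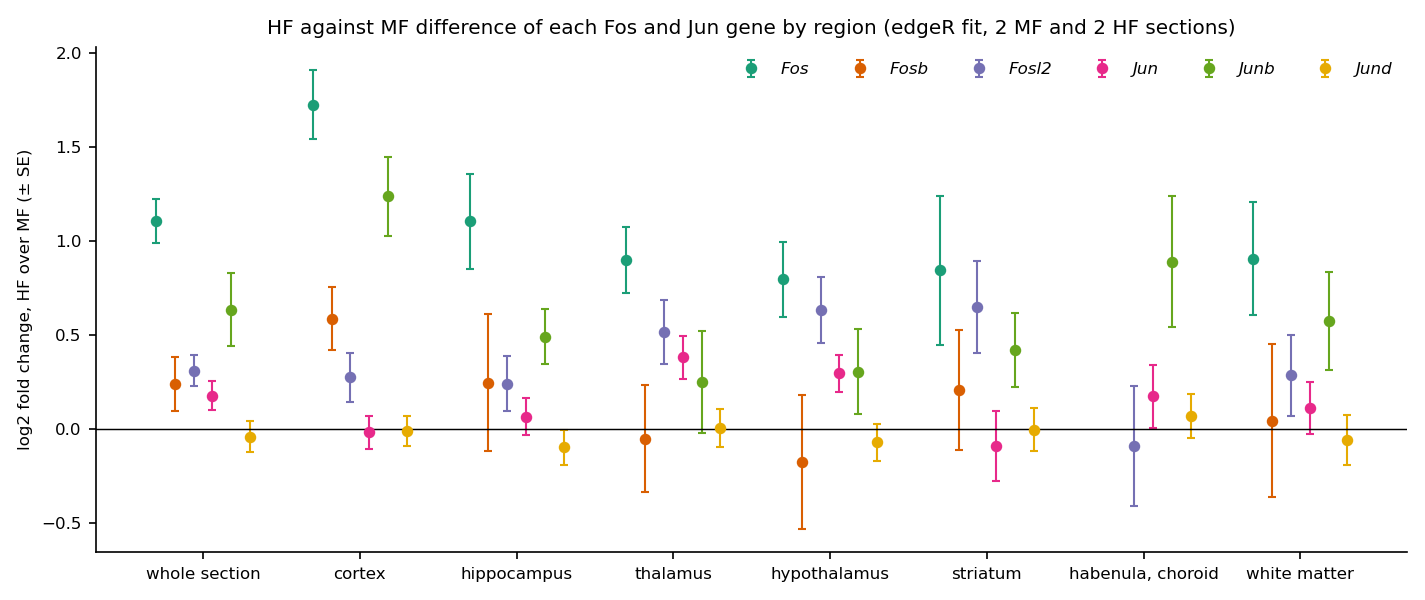
Log2 fold change of HF over MF (y axis, points, with bars of 1 SE of the edgeR fit) for each member in the whole section and 7 regions (x axis). Fos was above 0 in every area where it passed the filter on low counts, up to 1.73 in the cortex, and Jund stayed between -0.10 and 0.07. Fos and Fosb have no point in the habenula and choroid spots.

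How many members passed a call was counted beside all features. A feature was called at an adjusted p under 0.05 and a change of at least 1.2-fold, the thresholds of the study's methods, here with edgeR on section sums. These counts describe values that the choice of members used, and nothing is read from them. In CTX, 2 of the 6 members (Fos and Junb) and 20 of 13181 features (0.152%) were called, and DESeq2 called Fos and not Junb. Within the cortex Fos and Junb were called in layer 2-3 (0.277% of all features tested there), layer 4 (0.398%) and layer 6 (0.0929%), and Fos in layer 5 (0.14%). No member was called in the other regions, in the whole section or in OLF (0.191% of features), CA1 (0.0469%), CA2-3 (0.339%) and DG (0.141%). All features called there came to 0% in the whole section, TH and HY, 0.248% in HP, 0.0717% in STR, 0.00862% in VS and 0.00786% in WM. For the whole section, TH and HY, where edgeR called none, 1020, 968 and 915 features had an unadjusted p under 0.05, and DESeq2 called 23 (Fos among them), 5 and 6.

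Both HF sections lay above both MF sections for 5 of 6 members over the whole section (all but Jund), where 21.8% of the features tested did so. The same was true of 3 of 6 members in CTX (16.3% of features), HP (17.5%), TH (20.3%) and HY (21.1%). It held for 2 of 6 in STR (18%) and WM (18.2%), and for 2 of the 4 members that passed the filter in VS (16.7%). The terms for a diet difference that varies over CTX, HP, TH, HY and STR were called for 22 of 13594 features (0.162%). Junb was the only member among them, which again rests on the contrast that chose the members, so that nothing is read from it. The fitted differences of Junb spanned 0.99 on the log2 scale over these regions, from 0.25 in TH to 1.24 in CTX when each region was fitted alone. Fos spanned 0.91, Fosb 0.82, Jun 0.45, Fosl2 0.42 and Jund 0.11.

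Genes around AP-1 were listed by role, and like the members they were listed with earlier results of these data known. The list of other rapid genes holds 26 symbols of genes that neuronal activity or growth factors induce within minutes. Cyr61 and Ccn1 among them name the same gene, and 24 of the list were tested in CTX. Of them 8 rose and none fell there, where 0.152% of all features were called. The values of 22 lay above 0, and the median log2 fold change was 0.62 beside 0.00 for all features. As the list was drawn up with these results known, its counts and p-values describe these sections and are no independent evidence. Egr1, a zinc finger factor induced by activity, had 83.6 and 97.1 CPM in MF and 363 and 630.2 in HF in CTX (log2 fold change 2.49 ± 0.18, adjusted p = 1.53e-05, edgeR). Egr2 rose by 1.67 ± 0.27, from 1.92 and 2.44 to 8.02 and 5.51, and Egr4 by 0.68 ± 0.10. Arc, which codes for a protein of the postsynapse, had 57.1 and 50.9 in MF and 214.5 and 89.6 in HF (1.47 ± 0.26, adjusted p = 0.0347, edgeR).

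The nuclear receptors Nr4a1 and Nr4a3 rose by 1.02 ± 0.15 and 1.02 ± 0.10 in CTX, the phosphatase gene Dusp6 by 0.81 ± 0.12 and the clock gene Per1 by 0.62 ± 0.09. Egr3 had a log2 fold change of -0.06 ± 0.12 and Maff, a small Maf protein that is also a partner of AP-1 proteins, of -0.58 ± 0.38, neither past the test. In HP 6 of the list (Egr1, Egr4, Nr4a1, Nr4a3, Arc and Dusp6) rose, in STR 2 (Egr1 and Nr4a3), and in VS and WM Egr1 alone. DESeq2 called 6 of the list in CTX, 5 in HP and none in STR. Without MF replicate 1 the count fell to 2 in HP and 1 in STR, and leaving out either MF section in turn left no gene of the list called in WM. Among the subregions layer 4 had the most called, 9, the phosphatase gene Dusp1 being one of them. None was called by edgeR in TH, HY or the whole section, with medians of 0.36, 0.28 and 0.39, whereas DESeq2 called 1, 0 and 6 of the list there. The HF sections were not ordered alike for all of these genes. Junb, Arc, Nr4a1 and Dusp6 had their highest cortical level in HF replicate 1, whereas Egr1 had it in HF replicate 2.

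**Figure D5:**
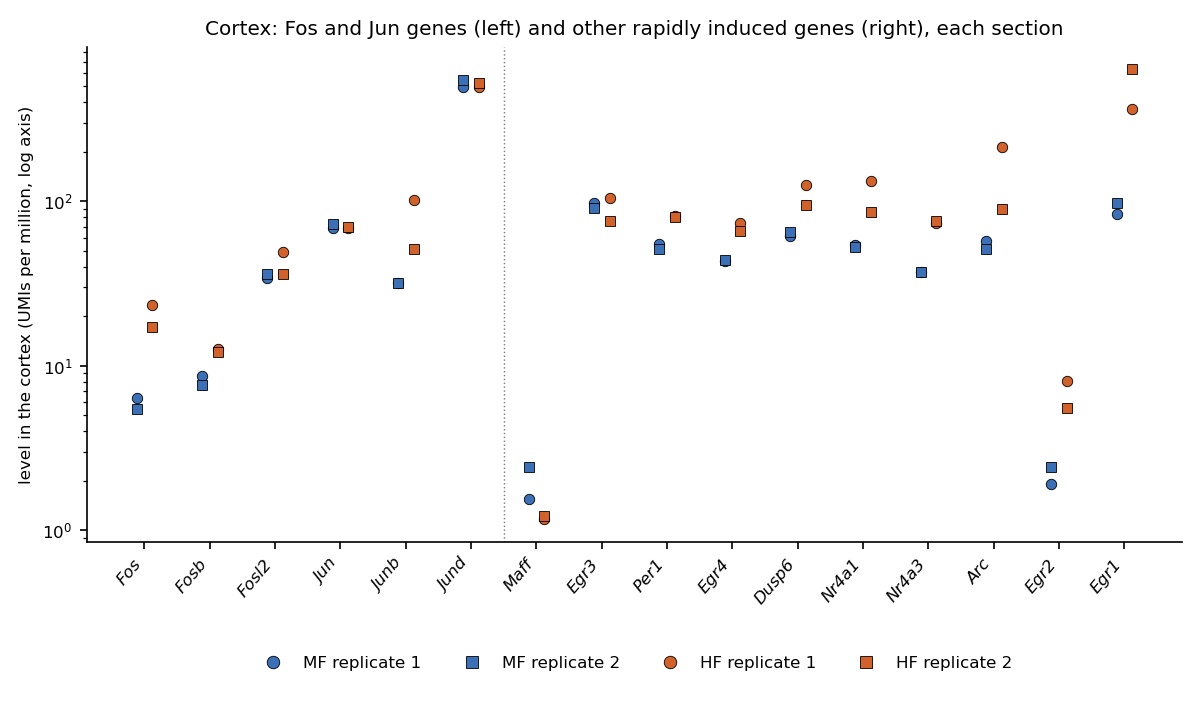
Level in the cortex (y axis, CPM on a log axis) of the 6 members, left of the dotted line, and of the other rapid genes named in the text, right of it, with a point for each section, blue for MF and orange for HF. Egr1 in HF lay at 363 and 630.2 against 83.6 and 97.1 in MF. Fosl2, Jun, Jund and Egr3 overlapped between the groups, and Maff was lower in both HF sections than in both MF sections.

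The other lists held no called gene in any of the 7 regions or in the whole section. In the subregions 1 gene was called, the AP-1 target Npy, which codes for neuropeptide Y. It had 154 and 167 CPM in MF and 303 and 216 in HF in DG (log2 fold change 0.69 ± 0.14, adjusted p = 0.0216, edgeR). Partners of AP-1 had 11 of 16 genes tested in CTX with a median log2 fold change of 0.04. Among them Nfe2l1 had 0.20 ± 0.10, and the lowest were Batf3 and Maff. Batf3 had -1.95 ± 0.46 (adjusted p = 0.212, edgeR), from 1.63 and 2.19 CPM in MF to 0.438 and 0.467 in HF. Levels this low rest on few UMIs, and over the whole section the value of Batf3 was -0.08 ± 0.22. The kinases and factors upstream of the members had 18 of 21 tested and a median of 0.04. Srf, which acts on the Fos promoter, had 43.8 and 43.6 in MF and 50.2 and 52.5 in HF (0.25 ± 0.10), and the Creb1 coactivator Crtc1 had 0.23 ± 0.10. Elk4 was lowest at -0.20 ± 0.10, then the kinase Map2k2 at -0.05 ± 0.10.

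Genes described as AP-1 targets in neurons had 19 of 20 tested in CTX, 10 of them above 0, with a median of 0.01. Rgs2, which shortens G protein signals, had 65.1 and 73.4 CPM in MF and 92.9 and 91.6 in HF (0.44 ± 0.09, adjusted p = 0.116, edgeR). Bdnf, a neurotrophin, had 67.9 and 72.9 against 97.3 and 81.7 (0.36 ± 0.10, adjusted p = 0.321). At the other end Inhba had -0.98 ± 0.49 and the peptide gene Cartpt -0.31 ± 0.11. These genes did not pass the test.

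Markers of cell types were summed in CTX beside these values. All 10 neuron markers were measured and came to 9333, 9037, 9486 and 9035 CPM. The 8 oligodendrocyte markers were lower in HF, at 10768 and 9486 against 12337 and 12528 in MF, as they were over the whole section. The sums of 8 astrocyte markers were 3189, 3156, 3171 and 2828 and those of 8 vessel markers 229, 238, 242 and 208, so that these groups overlapped. The 8 microglia markers were at 391 and 348 in HF and 411 and 405 in MF, and 7 of 8 listed heat shock genes at 1046 and 1105 against 1160 and 1111. The 4 of 5 listed blood genes in the tables did not split by diet, at 2007 in MF replicate 1 and 1712 in HF replicate 1, against 1084 and 1048 in the second replicates. The part of these markers and of depth in the values of the members was not tested.

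Whether the members lie in the same spots as Fos was described after each spot was thinned to 5000 UMIs, which left 27, 20, 66 and 72 cortical spots with a Fos UMI in the 4 sections. In the cortex the mean level in spots with a Fos UMI over that in spots without was 1.01 for Junb, 0.97 for Jun, 0.95 for Jund and 0.82 for Fosl2, beside a median of 0.98 over all features. Each member's value is the geometric mean of the ratios of the 4 sections. For Junb the ratios of the sections ran from 0.589 to 1.41, so that no excess beside Fos was detectable at this depth. For Fosl2 they ran from 0.233 to 1.78. Over the whole section, where differences between regions also enter, the ratio was 1.33 for Fosl2, 1.17 for Junb, 1.07 for Jun and near 1 for Jund. The median over all features was 0.986 there. For Fosb the whole-section ratio was 0.71, with ratios from 0.141 to 1.81 over the sections.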

How the data were processed

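The files held Visium matrices of 4 coronal sections, 2 MF and 2 HF, grouped by the sample titles. The authors mapped probe reads to mm10 with Space Ranger and deposited raw UMI counts per feature and spot, which were used as deposited. The deposited table of spatial scores gave Moran's I per feature, a score computed by Space Ranger. Spots were kept at 500 or more UMIs and 250 or more features, the study's own limits. Spot barcodes name array positions, so sections share them by design. Doublets have no meaning for spots and none were called.

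Spots were clustered with scanpy 1.11.5 (2000 variable genes scaled within sections, 30 principal components, 20 neighbours, Leiden resolution 1) after 108 genes, the members and lists among them, were left out. A cluster was named with at least 3 markers among its 50 leading genes. UMIs were summed per section and area and tested with edgeR 4.0.16 (TMM, filterByExpr, glmQLFTest) over all features, with Benjamini-Hochberg adjustment. On simulated cortex sums edgeR recovered 98% of 200 features changed 2-fold and 56.5% of those changed 1.5-fold. The simulation gave all features the same fixed dispersion, changed only features above a minimum level and had no section that stood apart. These shares are therefore not the power of the real sections, where Fos, 2.15-fold higher over the whole section, was not called. DESeq2 1.42.0, no filter, library size alone, a replicate block, thinned spots, Leiden resolution 0.5 and leaving out each section were alternatives, and a crossed block was added after the data were seen. The main fit had no replicate block. The differences between replicates 1 and 2 had r = -0.20 between MF and HF over 14971 features. This single value cannot exclude a slide or batch shared by sections of the same number, which the labels do not name. The blood genes above did follow the replicate number.

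Depth was 34983708 to 90098381 UMIs a section, which limits Fos to 284 to 567 UMIs a section. Named were the 6 members, the 3 features most alike to each, and from each list the called genes and the 2 with the largest change each way in the cortex, except that 2 genes this rule names are not reported here. Apart from that rule, the order of the HF sections for single genes was noted after the values were seen. The members and lists were chosen with earlier results of these data known. Promoter windows came from RefSeq, GRCm38.p6, and all 6 members matched by symbol. Images were not used here.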

Additional observations from a re-analysis of the deposited data

Results flagged for a closer look

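The HF against MF difference of Junb spanned 0.99 on the log2 scale over the 5 regions in the edgeR fit of diet by region terms. The members were chosen by this contrast, so the span is a description and the call of that fit is not taken as a test of Junb. It was largest in CTX, and HF replicate 1 was above the other sections in each of these regions.

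For Jund and Jun the groups did not overlap in opposite directions in different areas, and the difference between those areas was not tested gene by gene. Jund was lower in HF in HP (-0.10 on the log2 scale) and higher in VS (0.070), and among the subregions it was lower in layer 4 (-0.050) and higher in OLF (0.14) and CA2-3 (0.044). Jun was higher in HF in layer 2-3 (0.27) and layer 4 (0.40) and lower in layer 6 (-0.29). With 2 sections against 2, such orders are common: both HF sections lay above both MF sections for 16.3% of the features in CTX.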

How the results depend on the processing

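The log2 fold change of Fos stayed above 0 in all 76 values over the whole section and 6 regions under the alternatives, from 0.63 to 1.94. Its HF sections lay above its MF sections in each of these areas, and the members were chosen by this contrast. The sign of Fos could therefore hardly change. Of 501 values for the members' differences 455 moved by less than the spread between sections. The 2 results that had been called, Fos and Junb in CTX, kept their sign. Signs of results not called did change. Jun in CTX and Jund in CTX and the whole section, below 0 in the main fit, were each above 0 in 2 of 11 values. Junb rested most on 1 section: without HF replicate 1 its value was 0.29 for the whole section and 0.70 in CTX, where leaving out each section in turn gave 0.29 to 0.91 and 0.70 to 1.67. DESeq2 called Fos and not Junb in CTX.

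Calls of members in the whole section and the 7 regions, 2 together, came to 6 with no filter and ranged from 2 to 16 without 1 section (7 without HF replicate 1, 16 without HF replicate 2). The features called in the 7 regions together, 41, came to 448 with no filter, 101 at Leiden resolution 0.5 and between 31 and 2744 without 1 section, lowest without MF replicate 1 and highest without HF replicate 1 (1706 without HF replicate 2, 81 without MF replicate 2). Those of the whole section, 0, came to 23 with DESeq2, 5 with no filter and 0 to 1166 without 1 section (840 without HF replicate 2). A lone HF section is there assumed to vary like the MF sections. With the replicate block the features called in the regions came to 201, those of the whole section to 0 and calls of members to 3. The crossed block gave 190, 11 and 4. Of the other rapid genes called, the replicate block left 1 in HP, where 6 were called without it, and gave 13 in CTX against 8. The counts in CTX were 13 without HF replicate 1 and 16 without HF replicate 2.

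All 6 members differed between regions under every alternative run. The pairs of neighbouring regions that differed, 11, came to 5 with thinned spots and from 6 to 11 without 1 section. In spots thinned to 2500 UMIs the ratio beside Fos was 0.526 for Jun and 1.12 for Jund. Only 14, 6, 47 and 40 cortical spots had a Fos UMI at that depth. Jun averaged 0.0714, 0.167, 0.0851 and 0.075 UMIs in them, near the floor, so nothing is read from its ratio. The cause of these shifts was not tested. Depth limits Fos and Fosb in VS, OLF, CA1 and CA2-3, Fosb in DG and Fosl2 in CA1, where they did not pass the filter.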
